A study of Mus musculus with 12 samples.

Results

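Collagens and the matrix genes of hepatic stellate cells were examined in the livers of mice given low-dose penicillin and of mice given none. The genes were chosen by name: every gene whose symbol has the form of a collagen chain, plus 12 listed genes (Acta2, Tagln, Timp1, Lrat, Reln, Des, Dcn, Lum, Lox, Pdgfrb, Sparc and Fn1). A total of 54 such genes, 42 collagens and the 12 listed, had a probeset (a set of array probes for 1 transcript) naming no other gene, out of 18193 genes on the array. Of these, 33 reached the median level of the array and were analysed, 23 collagens and 10 listed genes, among 11899 genes analysed in all. The other 21 fell under that level. All 12 animals were male C57BL/6 mice from 1 supplier with free access to food. In the penicillin group 6 mice received a low dose of the drug in their drinking water from weaning onwards, and the 6 control mice received no antibiotic. Livers were taken after 7 weeks, and each array holds the RNA of 1 liver. The sources used here give neither the dose nor the age at collection nor the cages, so mice that shared a cage cannot be told from independent ones.

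Collagens are triple helices of 3 chains, each built from a repeated glycine motif. Fibrillar types give tensile strength, type IV forms the sheet of basement membranes, and type VI forms beaded filaments around cells. In a healthy liver little matrix fills the space between hepatocytes and sinusoids. Stellate cells lie there, store vitamin A as retinyl ester, and are the main source of collagen when they are activated by injury. Portal fibroblasts and vessel smooth muscle carry overlapping genes.

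Levels are log2 intensities, on which 1 unit is a factor of 2, and levels of different probesets are not compared. Every difference is penicillin minus control, with the standard error and p-value of limma, a linear model that shares variance estimates across genes, and with Benjamini-Hochberg adjustment over all 11899 genes at a threshold of 0.05. The liver identity of the samples was plain: the mean albumin (Alb) level was 14.97 (SD 0.03) in the 6 penicillin livers and 15.00 (SD 0.03) in the 6 control livers. Of the 15 other stellate markers with a probeset, 14 (among them Hand2, Lhx2, Colec11 and Ngfr) reached the median level, as did 11899 of 18193 genes in all; that level is a filter and not a detection call. The RNA comes from whole liver, so fewer stellate cells and less RNA per stellate cell cannot be told apart. Some arrays stood apart from the rest. Control 1, control 3 and control 5 had high immediate early genes (mean deviations of 2.21, 2.27 and 1.55, against -0.93 to -0.22 on the other 9 arrays). In addition, 4 arrays (penicillin 1, penicillin 3, control 1 and control 3) were low in several of the genes described here.

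No collagen or stellate matrix gene passed the test between the groups. Limma called 0 of the 33 genes, against 0% of all genes (0 of 11899, smallest adjusted p = 0.265), and the smallest adjusted p among the 33 was 0.567. Without limma's shared variance estimate 0 genes were called as well. At an unadjusted p under 0.05 stood 2 of the 33, Col5a2 and Col20a1, which is 6.06% beside 7.98% of all genes (950 of 11899). Both were lower with penicillin, where 3.66% of all genes were lower at that level and 4.33% higher. Most of the genes nevertheless stood slightly lower with penicillin: 25 of 33 (75.8%) had a difference below 0, beside 47.2% of all genes. Their median difference was -0.11, beside 0.01 over all genes. For 30 of the 33 the difference was smaller than the spread between mice of 1 group, a count that was not made over all genes. The groups overlapped for all 33, where the groups did not overlap for 0.412% of all genes. In 22 of the 33 the 95% interval of the difference lay within -0.5 and 0.5; for the other 11 it reached further.

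**Figure D1:**
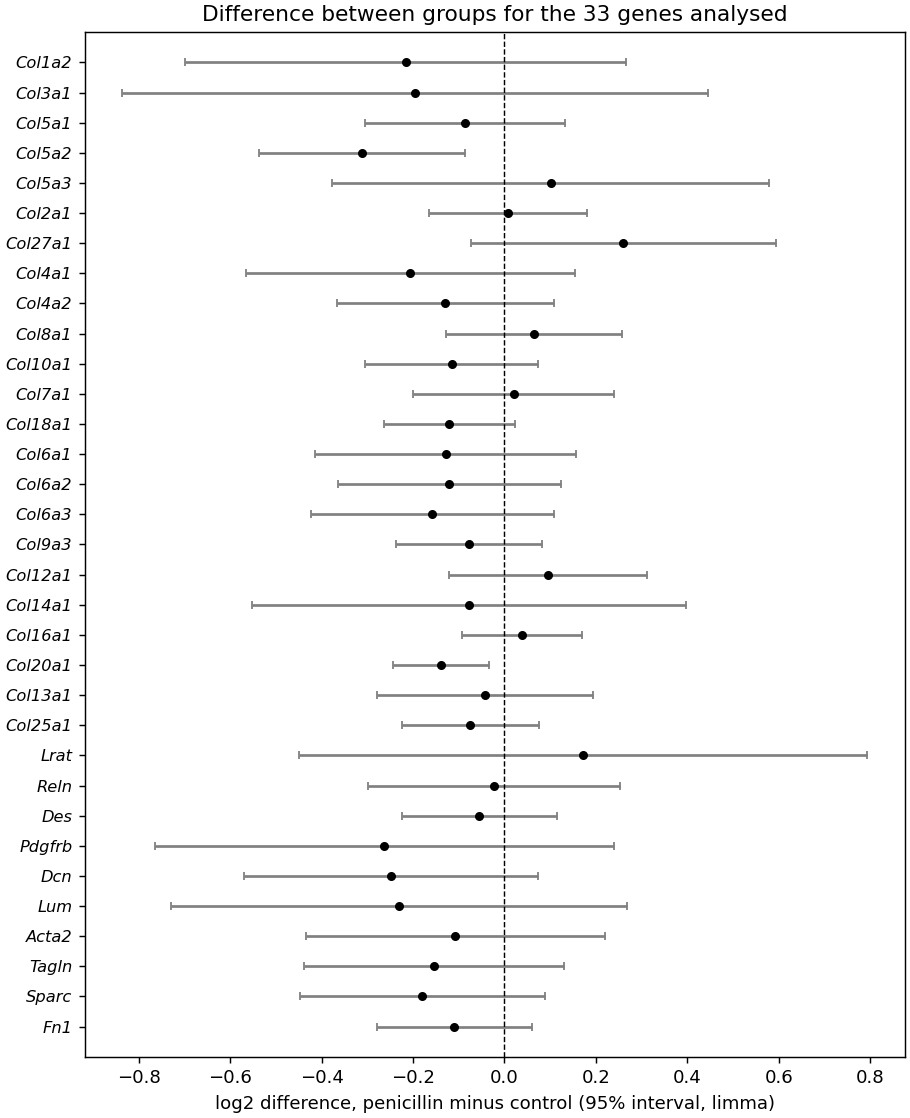
Log2 difference, penicillin minus control, for each of the 33 genes analysed (points) with its 95% interval from limma (bars), ordered by kind of gene from fibrillar collagens at the top to other matrix proteins at the bottom. The intervals of Col5a2 and Col20a1 alone leave out 0, neither gene passes after adjustment (adjusted p of 0.567 and 0.57), and 25 of 33 points lie below 0.

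Among the fibrillar collagens, 4 of 7 stood lower and 3 higher. Col3a1 and Col1a2 encode chains of types III and I, the interstitial fibrils of the liver. Col3a1 ran from 7.79 to 9.03 with penicillin (median 8.69) and from 7.84 to 9.33 in controls (median 8.97). Both groups split into low and high mice, with penicillin 1 (7.79), penicillin 3 (7.97), control 1 (7.84) and control 3 (7.96) apart from all others, which lay at 8.57 or above. The difference of -0.20 (SE 0.30, adjusted p = 0.917) had a 95% interval of -0.84 to 0.45. Col1a2 ran from 7.08 to 8.05 with penicillin (median 7.87) and from 7.26 to 8.39 in controls (median 7.93), a difference of -0.22 (SE 0.22, adjusted p = 0.869). The same 4 mice were its lowest. Without control 1, control 3 and control 5 the differences were -0.61 for Col3a1 and -0.54 for Col1a2, but that comparison leaves out low control mice and keeps the low penicillin mice. Without all 4 low arrays they were -0.28 and -0.21.

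The promoters of Col3a1, Col1a2 and Col6a1 are shown because all 3 genes were lowest in the same 4 mice. Each is the 150 bases before the transcript start, 5′ to 3′ on the gene's strand, from RefSeq on build GRCm38.p6. Capitals mark CCAAT and TATAAA on either strand. Col3a1 lies on the plus strand of chromosome 1 (chr1:45311388-45311537), Col1a2 on the plus strand of chromosome 6 (chr6:4505468-4505617) and Col6a1 on the minus strand of chromosome 10 (chr10:76726045-76726194).
Col3a1: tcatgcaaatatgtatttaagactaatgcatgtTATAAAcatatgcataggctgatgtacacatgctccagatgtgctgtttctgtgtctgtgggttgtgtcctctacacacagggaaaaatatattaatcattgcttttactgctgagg
Col1a2: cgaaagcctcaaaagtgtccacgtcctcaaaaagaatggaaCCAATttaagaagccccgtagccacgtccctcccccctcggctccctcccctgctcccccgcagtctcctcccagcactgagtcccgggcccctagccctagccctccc
Col6a1: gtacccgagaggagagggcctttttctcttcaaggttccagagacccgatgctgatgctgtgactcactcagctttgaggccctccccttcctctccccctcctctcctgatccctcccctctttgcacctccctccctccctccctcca
The Col3a1 stretch holds TATAAA, its first base at position -117 from the start, the Col1a2 stretch holds CCAAT at position -109, and the Col6a1 stretch holds neither. In windows of 250 bases before to 50 after the start, available for 23 of the 33 genes (25 windows), CCAAT was found in 36% of windows, beside 37.4% of all 32851 windows. TATAAA was in 12% beside 13.6%, CAGAC in 60% beside 49.6%, and GGGCGG in 64% beside 35.7%. The CArG box, which binds serum response factor, was searched only in the strict form CCWWWWWWGG, where W is A or T. That form was in 0 of the 25 windows, beside 1.63% of all. Forms with another base inside were not searched, and Tagln had no window, so these genes cannot be said to lack the element. Each motif was searched on both strands, and a CArG box can contain CCAAT or TATAAA. These shares describe letters in a window and carry no test.

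Col5a2, a chain of type V collagen that is built into type I fibrils, gave the smallest p of the 33 genes. It ran from 5.32 to 5.86 with penicillin (median 5.74) and from 5.84 to 6.23 in controls (median 5.92). All 6 penicillin mice lay below the control median, and 4 of them lay below the lowest control. The difference was -0.31 (SE 0.10, 1.24-fold lower, adjusted p = 0.567), -0.39 when control 1, control 3 and control 5 were left out, and -0.23 without mice 1 and 3 of both groups. Its second probeset, under the median level, gave -0.02. The partner chain Col5a1 differed by -0.09 and Col5a3 by 0.10 (SE 0.22), with penicillin 6 (6.87) and control 6 (7.11) as the lowest mice of their groups. Col27a1, a fibrillar collagen of cartilage and other tissues, went the other way. It ran from 8.27 to 8.88 with penicillin (median 8.39) and from 7.86 to 8.83 in controls (median 8.06), a difference of 0.26 (SE 0.15, adjusted p = 0.722). No penicillin mouse lay below the control median, and the second probeset gave 0.43. The difference was 0.07 without control 1, control 3 and control 5, and also 0.07 without mice 1 and 3 of both groups. The cartilage collagen Col2a1, barely above the median level of the array, differed by 0.01.

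**Figure D2:**
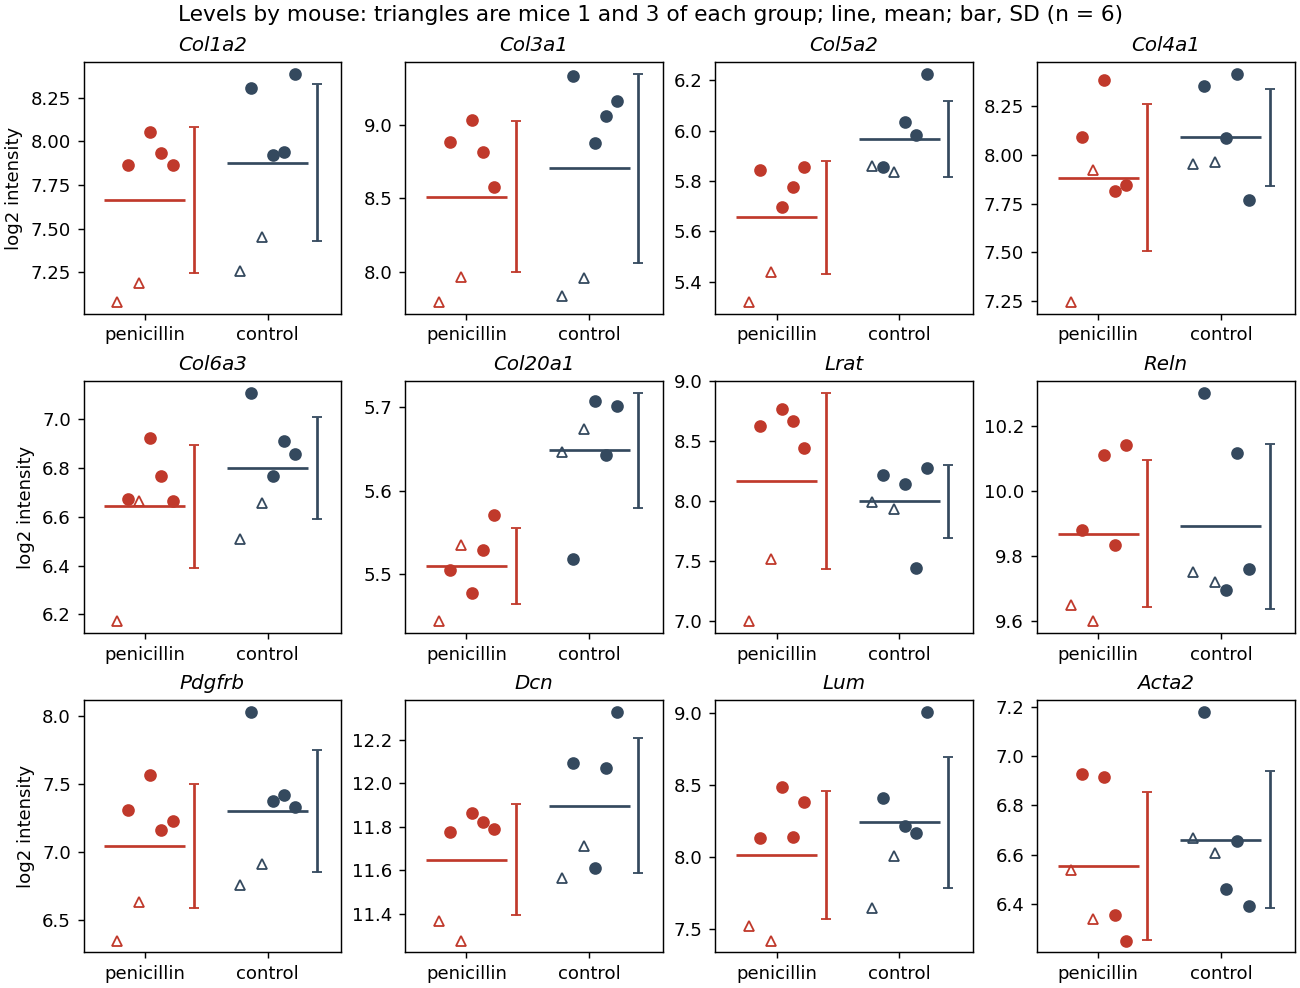
Log2 intensity of 12 of the genes in each mouse, penicillin left of control, with the mean (line) and SD (bar) of 6 mice. Open triangles are mice 1 and 3 of each group, which are the lowest 4 for Col1a2, Col3a1, Pdgfrb and Lum; for Lrat 4 of 6 penicillin mice lie above the highest control.

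All 3 chains of type VI collagen stood lower. Col6a3 ran from 6.17 to 6.92 with penicillin (median 6.67) and from 6.51 to 7.11 in controls (median 6.81), and penicillin 1 lay far below the other penicillin mice (difference -0.06 without it). The differences were -0.16 for Col6a3 (SE 0.12, adjusted p = 0.803), -0.13 for Col6a1 (SE 0.13) and -0.12 for Col6a2 (SE 0.11). Without control 1, control 3 and control 5 those of Col6a1 and Col6a2 were -0.35 and -0.27, and without all 4 low arrays they were -0.16 and -0.13.

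The basement membrane chains Col4a1 and Col4a2, which form the common type IV helix together, also stood lower without passing. Col4a1 ran from 7.24 to 8.38 with penicillin (median 7.88) and from 7.77 to 8.42 in controls (median 8.02), a difference of -0.21 (SE 0.17, adjusted p = 0.811). Col4a2 ran from 6.88 to 7.47 with penicillin (median 7.33) and from 7.16 to 7.68 in controls (median 7.44), a difference of -0.13 (SE 0.11, adjusted p = 0.818). Penicillin 1 was the lowest mouse for both genes, and without it the differences were -0.08 and -0.05. The genes lie head to head on chromosome 8, where the RefSeq starts are 21 bases apart (11312826 on the minus strand for Col4a1 and 11312805 on the plus strand for Col4a2, GRCm38.p6) and their promoter windows share 78 bases. Over the 12 mice their levels moved together, with Pearson's r = 0.87 (permutation p = 0.00054, adjusted p = 0.013 over 24 pairs) and Spearman's rho = 0.76 (permutation p = 0.0065, adjusted p = 0.156). Within the penicillin mice r was 0.90 and within the controls 0.79, and without the 2 mice farthest from the median of Col4a1 it was 0.75.

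**Figure D3:**
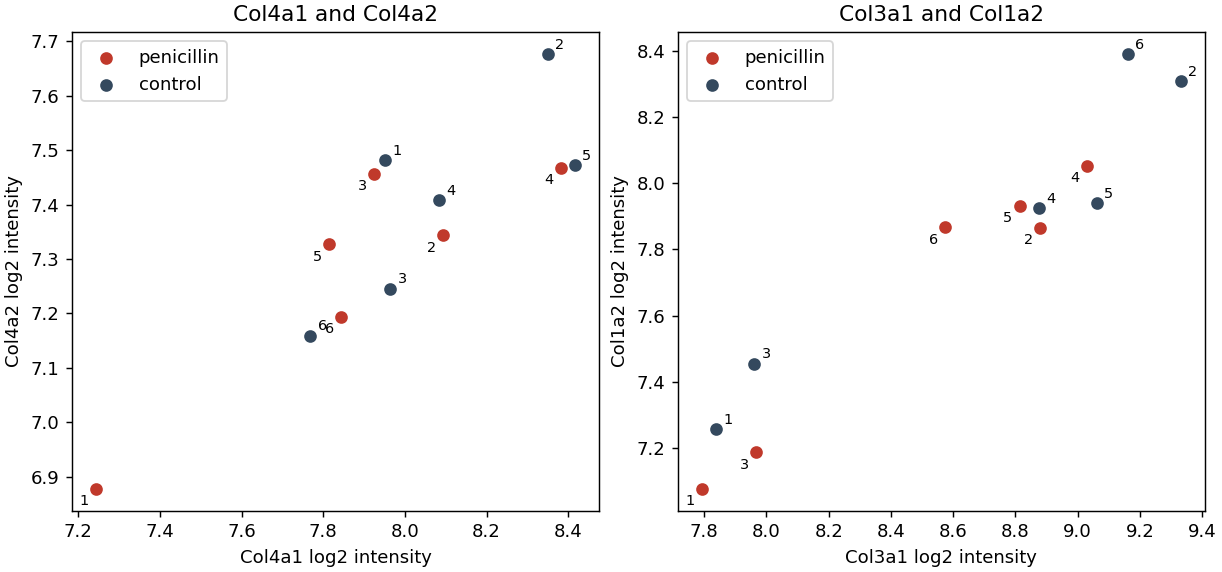
Log2 intensity of Col4a2 against Col4a1 (left) and of Col1a2 against Col3a1 (right), 1 point per mouse, red for penicillin and dark for control, numbered by mouse. The Col4 pair spreads along a line with penicillin 1 at its low end, and the right panel holds 4 mice (numbers 1 and 3 of both groups) apart from the other 8.

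Col18a1, the basement membrane collagen from which endostatin is cut, is also made by hepatocytes. It ran from 11.50 to 11.72 with penicillin (median 11.63) and from 11.57 to 11.89 in controls (median 11.73). All 6 penicillin mice lay below the control median, and the difference was -0.12 (SE 0.07, adjusted p = 0.69). Its second probeset above the median level gave -0.06 (SE 0.09), and the mean of both gave -0.09. Col10a1, a network collagen of growth plates, ran from 4.51 to 4.90 with penicillin (median 4.75) and from 4.54 to 5.00 in controls (median 4.85), a difference of -0.12 (SE 0.09, adjusted p = 0.793). The network collagen Col8a1 differed by 0.06 and Col7a1, of anchoring fibrils, by 0.02.

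Collagens that coat fibrils gave 1 of the smallest p-values. Col20a1, of this class, ran from 5.44 to 5.57 with penicillin (median 5.52) and from 5.52 to 5.71 in controls (median 5.66). All 6 penicillin mice lay below the control median and control 2, at 5.52, lay among them. The difference was -0.14 (SE 0.05, adjusted p = 0.57), but its second probeset above the median level gave 0.07, and the probesets were negatively correlated over the 12 mice (r = -0.47). With the mean of both the difference was -0.04. Col14a1, which is strong in liver fibroblasts, was another gene with mice 1 and 3 of both groups lowest, and differed by -0.08 (SE 0.22). Col9a3, Col12a1 and Col16a1 differed by -0.08, 0.10 and 0.04, and the membrane-spanning Col13a1 and Col25a1 by -0.04 and -0.07.

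The genes that mark stellate cells did not move as a block. Lrat, the enzyme that esterifies retinol for storage, ran from 6.99 to 8.77 with penicillin (median 8.54) and from 7.44 to 8.28 in controls (median 8.07). Of the 6 penicillin mice, 4 lay above the highest control, while penicillin 1 (6.99) was the lowest of all mice and penicillin 3 stood at 7.51. The difference of 0.17 (SE 0.29, adjusted p = 0.923) had a 95% interval of -0.45 to 0.79, and it was 0.61 without mice 1 and 3 of both groups and -0.04 without control 1, control 3 and control 5. Reln, a secreted glycoprotein of resting stellate cells, ran from 9.60 to 10.14 with penicillin (median 9.86) and from 9.70 to 10.30 in controls (median 9.76), a difference of -0.02 (SE 0.13). Des, the intermediate filament desmin, ran from 6.30 to 6.58 with penicillin (median 6.46) and from 6.26 to 6.73 in controls (median 6.53), a difference of -0.05 (SE 0.08).

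Pdgfrb, the receptor through which platelet-derived growth factor drives stellate cell division, ran from 6.35 to 7.57 with penicillin (median 7.19) and from 6.76 to 8.03 in controls (median 7.35). Its difference was -0.26 (SE 0.23, adjusted p = 0.832), or -0.12 without control 2. It was -0.54 without control 1, control 3 and control 5, and -0.22 without mice 1 and 3 of both groups. A second probeset gave 0.05 and hardly correlated with the first over the mice (r = 0.04). Dcn and Lum encode decorin and lumican, small leucine-rich proteoglycans that bind collagen fibrils. Dcn ran from 11.28 to 11.86 with penicillin (median 11.78) and from 11.57 to 12.33 in controls (median 11.89). All 6 penicillin mice lay below the control median (difference -0.25, SE 0.15, adjusted p = 0.727). Lum ran from 7.42 to 8.49 with penicillin (median 8.13) and from 7.64 to 9.01 in controls (median 8.19), a difference of -0.23 (SE 0.23). It was -0.08 without control 6, -0.53 without control 1, control 3 and control 5, and -0.17 without mice 1 and 3 of both groups.

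Contractile genes, which rise when stellate cells become myofibroblasts and are also made by vessel muscle, varied widely within both groups. Acta2, alpha smooth muscle actin, ran from 6.25 to 6.93 with penicillin (median 6.44) and from 6.39 to 7.18 in controls (median 6.63). Control 2 was the highest mouse, and 3 penicillin mice lay below the lowest control. The difference was -0.11 (SE 0.15, adjusted p = 0.908), and without control 2 it was -0.0029. That of Tagln, which encodes the actin-binding protein transgelin, was -0.15 (SE 0.13). Sparc, a collagen-binding glycoprotein, ran from 8.90 to 9.64 with penicillin (median 9.36) and from 9.28 to 9.82 in controls (median 9.47), a difference of -0.18 (SE 0.12, adjusted p = 0.761). Its other probesets above the median level gave -0.20 and -0.02, and the lowest correlation between its probesets over the mice was r = -0.22. Fibronectin (Fn1), made largely by hepatocytes for plasma, ran from 12.38 to 12.74 with penicillin (median 12.50) and from 12.48 to 12.82 in controls (median 12.59). It differed by -0.11 (SE 0.08, adjusted p = 0.77), and its second probeset by -0.51.

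The 21 genes under the median level were left out of the test, and with no such filter 0 of all 54 were called. Col1a1, the major chain of type I collagen, lay just under the median level of 4.73 at a mean of 4.71, and Col10a1 lay just above that filter at 4.77. It ran from 4.37 to 4.84 with penicillin (median 4.77) and from 4.58 to 4.80 in controls (median 4.72). Timp1, an inhibitor of matrix breakdown, ran from 3.18 to 3.76 with penicillin (median 3.67) and from 3.54 to 4.12 in controls (median 3.74). Lox, which crosslinks collagen, had a mean of 4.20. The other dim genes were Col4a3, Col4a4, Col4a5, Col4a6, Col6a4, Col6a5, Col8a2, Col9a1, Col9a2, Col11a1, Col11a2, Col15a1, Col17a1, Col19a1, Col22a1, Col23a1, Col24a1 and Col26a1. Over the 21 dim genes means ran from 2.73 to 4.71, and 9 stood lower and 12 higher, by no more than 0.20. The files hold no detection calls, so whether such a gene was expressed at all is not known.

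For most of the genes the spread between mice exceeded the difference between groups, and the medians over all genes lay in the same order. The median absolute difference was 0.12 for the 33 genes, beside 0.07 for all genes. The median spread within a group was 0.21 for the 33 genes, beside 0.15 for all genes, and 24.2% of the 33 had a spread above 0.3, beside 10.5% of all genes. In 7 of the 33 (Col1a2, Col3a1, Col6a1, Col6a2, Col14a1, Lum and Pdgfrb) the lowest 4 of the 12 mice were exactly penicillin 1, penicillin 3, control 1 and control 3. That is 21.2%, beside 3.04% of all genes (362 of 11899). These mice were singled out by their Col3a1 level, so Col3a1 is among the 7 by choice. Penicillin 1 was the lowest mouse for 14 of the 33 genes and control 2 the highest for 11. How often these mice were lowest or highest over all genes was not counted. The median deviation of the 33 genes from their means was -0.23 in penicillin 1 and -0.10 in penicillin 3, against 0.20 in control 2. Over all genes the median deviations in these mice were -0.03, -0.01 and -0.001. Without mice 1 and 3 of both groups the median difference between groups was -0.07, and 20 of the 33 genes stood lower, against 25 with all mice.

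**Figure D4:**
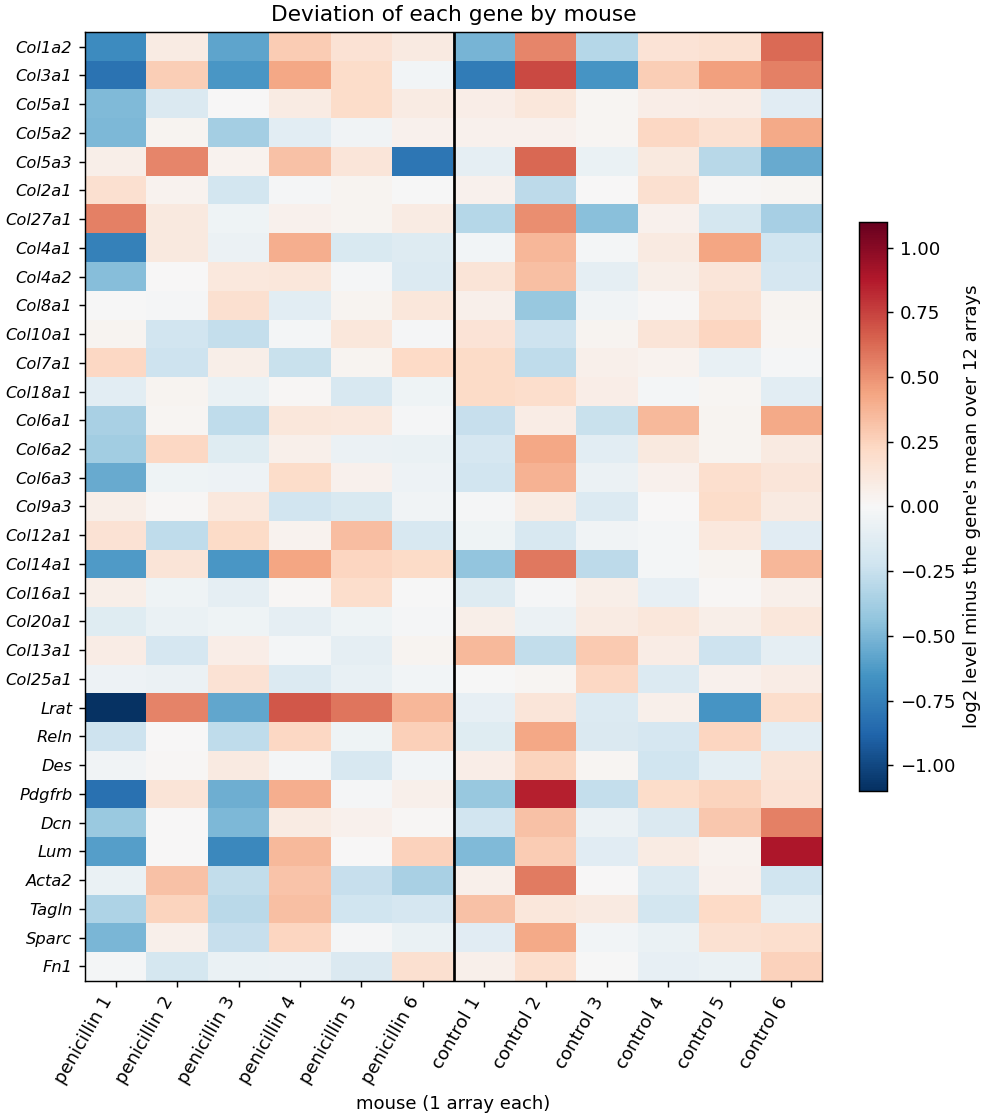
Log2 level of each of the 33 genes in each mouse minus the gene's mean over 12 mice, blue for lower and red for higher, penicillin mice left of control mice. Blue columns for Col1a2, Col3a1, Col14a1, Pdgfrb and Lum recur in mice 1 and 3 of both groups, and control 2 is red for the same genes.

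Because Col3a1 falls into low and high mice, its correlations with the other analysed genes were not computed over all 12. The only one computed over all 12 was that with the dim Col1a1 (r = -0.10). Over the 8 mice outside the low 4, a comparison chosen after the levels were seen, Col3a1 correlated with 23 of the 32 other genes positively, and 0 of 32 passed after adjustment. The closest was Sparc, with r = 0.91 (exact permutation p = 0.00268, adjusted p = 0.0659), rho = 0.90 (exact permutation p = 0.00456, adjusted p = 0.146) and r = 0.82 without the 2 mice farthest from the median of Col3a1. Col6a3 followed with r = 0.89 (exact permutation p = 0.00412, adjusted p = 0.0659), rho = 0.83 (exact permutation p = 0.0154, adjusted p = 0.196) and r = 0.74 without those mice. For Col1a2 r was 0.81 (exact permutation p = 0.0068, adjusted p = 0.0725), rho 0.79 (exact permutation p = 0.0279, adjusted p = 0.196) and r 0.79 without those mice. For Col1a1, with the 23 analysed collagens r ran from -0.36 to 0.59 over 12 mice, and 0 of 23 passed after adjustment (smallest adjusted p = 0.544, permutation test).

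The wider matrix program gave a similar picture, with 0 genes called in any list described here. Of the other stellate markers, 10 of 14 stood lower (median -0.10). The list mean ran from -0.30 to 0.20 with penicillin and from -0.30 to 0.37 in controls, and control 1, penicillin 3 and penicillin 1 were its lowest mice (-0.30, -0.30 and -0.20). The growth factor Hgf differed by -0.27 (SE 0.15) and the pericyte gene Rgs5 by -0.19 (SE 0.11). With control 1, control 3 and control 5 left out, they differed by -0.13 and -0.05, while 13 of the 14 markers stood lower (median -0.22). That omission takes away control 1, a low mouse of this list, and keeps penicillin 1 and penicillin 3. Without mice 1 and 3 of both groups the median of the list was -0.04. Of other fibroblast matrix genes 11 of 14 stood lower (median -0.08). The elastic fibre protein Emilin1 (-0.21, SE 0.09) and the fibril-binding fibromodulin, Fmod (-0.51, SE 0.26), led them. Without control 1, control 3 and control 5 these 2 genes were at -0.27 and -0.75, and 11 of 14 stood lower (median -0.19). The median was -0.10 without mice 1 and 3 of both groups.

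Genes that fold and crosslink collagen had list means that barely overlapped between the groups. Of 19, 14 stood lower (median -0.08), with list means of -0.11 to 0.01 with penicillin and 0.01 to 0.14 in controls. Serpinh1, the collagen chaperone HSP47 and itself a heat shock gene, averaged 7.05 ± 0.20 in penicillin livers and 7.50 ± 0.28 in control livers (SD, n = 6 each), a difference of -0.45 (SE 0.13, adjusted p = 0.479). The prolyl hydroxylase P4ha1 differed by -0.75 (SE 0.29, adjusted p = 0.584). Without control 1, control 3 and control 5, which were high in immediate early genes, the differences were -0.24 for Serpinh1 and -0.17 for P4ha1. The list as a whole then had 17 of 19 genes lower (median -0.14).

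Of 9 genes of matrix breakdown, 7 stood lower (median -0.14). Among them were the gelatinase Mmp2 (-0.32, SE 0.11, adjusted p = 0.567) and its activator Mmp14 (-0.36, SE 0.17). Mmp2 and Mmp14 were at -0.31 and -0.49 without control 1, control 3 and control 5, where 7 of 9 stood lower (median -0.13). Of 19 genes of TGF-beta and PDGF signalling, 10 stood lower and 9 higher (median -0.01). Once control 1, control 3 and control 5 were left out, 15 stood lower (median -0.09). That omission keeps penicillin 1 and penicillin 3, the lowest mice of this list (-0.27 and -0.18). Without mice 1 and 3 of both groups its median was 0.03. Ccn2, a matricellular TGF-beta target, differed by -0.64 (SE 0.23, adjusted p = 0.57), and the repressor Skil by -0.38 (SE 0.16). Without control 1, control 3 and control 5 they differed by -0.25 and -0.37. Laminins and other basement membrane partners split evenly, 6 lower and 6 higher, with Lamb2 at -0.17 and Lamb1 at -0.15. Leaving out those controls put Lamb2 at -0.26 and Lamb1 at -0.18, with 8 of 12 partners lower (median -0.05). Their median was 0.003 without mice 1 and 3 of both groups. Of 14 matrix receptors 10 stood lower (median -0.13), with the syndecan Sdc4 at -0.21 (SE 0.08) and the integrin Itgb3 at -0.28 (SE 0.13). With control 1, control 3 and control 5 left out Sdc4 and Itgb3 were at -0.06 and -0.09. Of the 14 receptors 12 then stood lower (median -0.10).

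**Figure D5:**
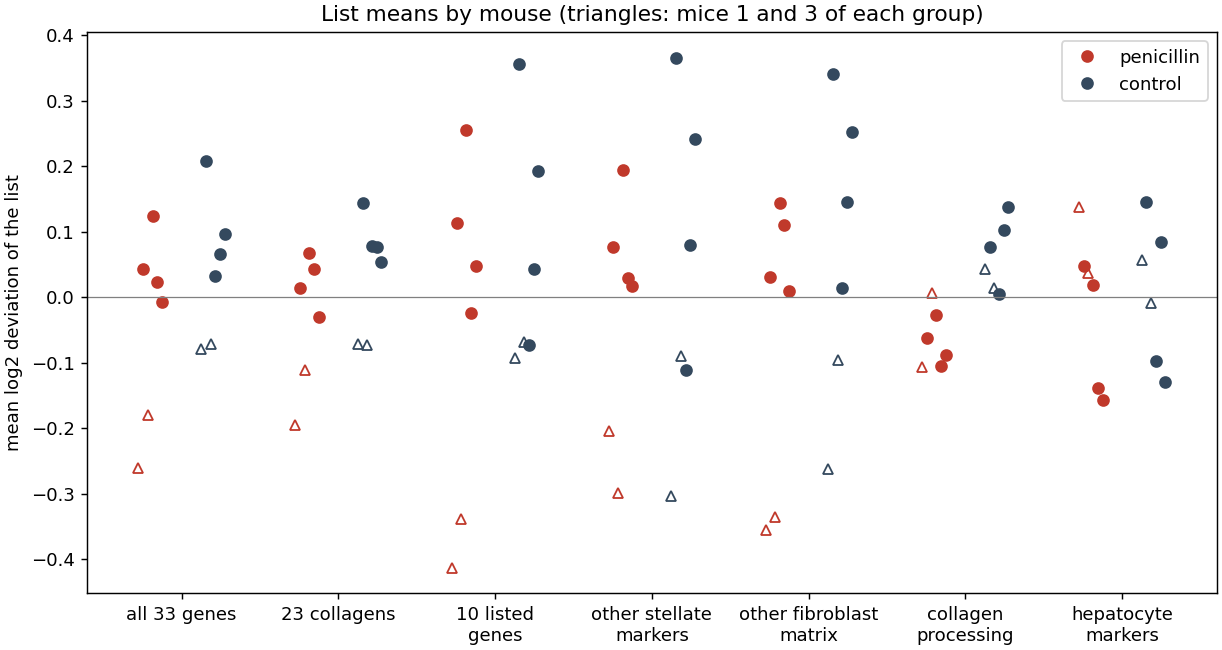
Mean log2 deviation of each list in each mouse, red for penicillin and dark for control, with open triangles for mice 1 and 3 of each group. The penicillin triangles are the lowest of their group for the 33 genes, the other stellate markers and the other fibroblast matrix genes; among control stellate markers, control 4 (-0.11) lies between the triangles, and hepatocyte markers spread over -0.16 to 0.15.

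No marker of another liver cell type passed the test, and the part of such cells in the results above was not tested. Hepatocyte markers had a median difference of -0.02 (8 of 10 lower; list means -0.16 to 0.14 with penicillin and -0.13 to 0.15 in controls), with Tat at -0.24 and Ass1 at 0.47 (-0.13 and 0.10 without control 1, control 3 and control 5). Endothelial markers stood at -0.03 (7 of 13 lower), with Clec4g at -0.12 and Oit3 at -0.10. Their list means ran from -0.10 to 0.04 with penicillin and from -0.09 to 0.27 in controls. With control 1, control 3 and control 5 left out 11 of 13 stood lower (median -0.10), with Clec4g at -0.14 and Oit3 at -0.11. Kupffer cell markers stood at -0.07 (10 of 12 lower), with Lyz2 at -0.23 and Clec4f at -0.15. Their list means ran from -0.27 to 0.14 with penicillin and from -0.19 to 0.39 in controls. With the same controls left out 12 of 12 stood lower (median -0.18), with Lyz2 at -0.26 and Clec4f at -0.21. Without mice 1 and 3 of both groups the medians of the endothelial and Kupffer lists were -0.08 and -0.07. All 5 bile duct markers measured stood lower (median -0.27; -0.44 to 0.06 with penicillin and 0.02 to 0.27 in controls), with Sox9 at -0.55 and Krt19 at -0.36, and penicillin 1 and penicillin 3 were their lowest mice. Leaving out control 1, control 3 and control 5 gave 4 of 5 lower, with Sox9 at -0.28 and Krt19 at -0.39. Markers of portal fibroblasts, muscle and mesothelium stood at -0.14 (4 of 5 lower), with Msln at -0.38 and Mylk at 0.10. Their list means ran from -0.31 to 0.06 with penicillin and from -0.20 to 0.31 in controls. Without control 1, control 3 and control 5 Msln was at -0.50 and Mylk at 0.06, with 4 of 5 lower (median -0.04). Lymphocyte markers stood at 0.14 (3 of 4 higher; -0.02 to 0.21 with penicillin and -0.16 to 0.08 in controls), with Cd3d at 0.23 and Cd79b at 0.28 (0.21 and 0.11 without those arrays). All 14 immediate early genes measured stood lower (median -1.26), 13 of them at an unadjusted p under 0.05 and 0 after limma's adjustment, with Klf6 at -0.75 and Fos at -3.03. Without control 1, control 3 and control 5, which held the high values, 11 of 14 stood lower (median -0.20), with Klf6 at -0.43 and Fos at -0.77.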

How the data were processed

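The deposited values are RMA intensities on a linear scale; the method is named in the submitters' processing notes. RMA makes the distributions of arrays alike, so a change shared by most genes is removed. Log2 was taken and no further normalization applied. Arrays correlated at 0.989 to 0.997. The depth of an array is not a count, and the number of arrays limits precision.

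Of 45037 probesets other than controls, 34945 named 1 gene. Symbols were updated with RefSeq (GRCm38.p6), which held 18032 of the gene identifiers and not 162. Probesets with a mean under the median (4.73) were left out, and the brightest probeset stood for each gene. Differences were fitted over all genes with limma 3.58.1 in R 4.3.3, two-sided. The fit was tested on simulated data. Correlations used 100000 permutations, or all orders for 8 mice.

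Members and lists were chosen with earlier results of these data known. Levels by group are given for 12 members fixed by name, 10 with the smallest p, and Lum and Pdgfrb, added after their values were seen; the 2 smallest p of each list are named, and other members by difference. Alternatives were other filters, normalizations and probeset summaries, the replicate number as a block, an immediate early score as covariate, no variance prior and omission of arrays. A planned description of collagen repeats was not made.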

Additional observations from a re-analysis of the deposited data

Results flagged for a closer look

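Each group of 6 mice was searched for a lowest or highest mouse whose gap to its neighbour took up an unusually large part of the group's range, by Dixon's test at the 95% level. Of 66 groups of values, 6 had such a mouse, where chance gives about 1 in 20. Penicillin 1 stood apart from the other penicillin mice at 6.17 for Col6a3, below them, and at 8.88 for Col27a1, above them. The remaining 4 all concern control 2 among the controls: it was high for Acta2 at 7.18, and low for Col20a1 at 5.52, for Col8a1 at 4.67 and for Col2a1 at 4.50.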

How the results depend on the processing

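Under each of the 22 alternatives 0 genes were called, among the genes described here and among all genes. The median difference of the genes described here stayed below 0, between -0.13 and -0.05. These were the 33 genes, except under the other filters. With no filter they were 54 (34 lower, median -0.05), and with the filter at the 60th percentile 28 (23 lower, median -0.12). The number at an unadjusted p under 0.05 was 2 in the main result, 6 with the replicate block, 4 without control 1, control 3 and control 5, 4 without mice 1 and 3 of both groups (chosen after seeing the data), and 2 to 4 when 1 array was left out, with 4 without control 2. Same-numbered mice deviated together with correlations of -0.26 to 0.39, and 3 of 6 numbers were best matched by themselves. Since not every pair passed 0.1, and nothing in the labels ties the numbers to cages or days, the block was not used in the main result; whether the numbers mark a shared factor is not known. With the block the SE of Col3a1 was 0.102, against 0.296 without it.

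Of 325 differences under settings other than the omission of 1 array, 10 turned direction, and the cause was not tested. With the immediate early score as covariate Col13a1 was at 0.105 and Tagln at 0.037. Without control 1, control 3 and control 5 Col13a1 was at 0.075, Col5a3 at -0.0087 and Lrat at -0.0402. Without mice 1 and 3 of both groups Col13a1 was at 0.059, Col14a1 at 0.018, Col5a1 at 0.017, Reln at 0.022 and Tagln at 0.033. With 1 array left out 17 of 396 turned, in Col13a1 (-0.101 to 0.0252), Col14a1 (-0.172 to 0.0429), Col2a1 (-0.0493 to 0.049), Col5a1 (-0.135 to 0.00209), Col7a1 (-0.0329 to 0.072), Col8a1 (-0.0127 to 0.104) and Reln (-0.0767 to 0.0601). The correlation of Col4a1 with Col4a2, 0.868 in all mice, was 0.897 within penicillin, 0.787 within control and 0.747 without the 2 farthest mice. Precision is limited by 6 arrays per group, and probesets near the median level may hold background.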
